A study of Homo sapiens with 26 samples.

Results

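The keratin genes described here are the 55 autosomal protein-coding genes of the GENCODE 44 annotation, lifted to GRCh37, whose symbol is KRT followed by a number and at most 1 letter from A to C. They make up 55 of 19229 autosomal protein-coding genes. A total of 27 lie on chromosome 12 and 28 on chromosome 17. The measurement was chromatin immunoprecipitation followed by sequencing (ChIP-seq) of HALO-tagged transcription factors, pulled down with an antibody to the tag, in BJ cells, an established human foreskin fibroblast line. The 5 groups were FOXA1, 3 altered forms that the labels call FOXA1dbd, FOXA1nhaa and FOXA1rraa without saying what was altered, and HNF4A, each expressed ectopically for 48 hours. Every protein was thus a tagged, introduced copy in 1 cell line, and each group is represented by 1 deposited peak list although the labels give 2 ChIP libraries per group. The numbers below therefore have no replicate error and no difference between constructs was tested. A keratin gene's window is its body and 20 kb on either side, and a peak counts when it overlaps that window by at least 1 bp. Over all 55 windows the FOXA1 list held 48 distinct peaks of its 155652, the FOXA1dbd list 14 of 28831, the FOXA1nhaa list 36 of 105591, the FOXA1rraa list 18 of 71202 and the HNF4A list 40 of 38291. The 55 symbols fit the label given to the group, with a single member, KRT222, placed in no functional class here.

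Keratins are the intermediate filament proteins of epithelial cells. An acidic type I chain pairs with a basic type II chain, and pairs assemble into filaments that give epithelia, hair and nails their mechanical strength. Type II genes sit in a cluster on chromosome 12 together with the type I gene KRT18, and the other type I genes sit in a cluster on chromosome 17 that is split by genes for keratin-associated proteins of the hair. Each epithelium expresses its own pairs, such as KRT8 with KRT18 in simple epithelia, KRT5 with KRT14 in the basal layer of the epidermis and KRT1 with KRT10 above it, while vimentin is the filament protein of fibroblasts. FOXA1 is a forkhead factor that can bind its sites in closed chromatin, and HNF4A is a nuclear receptor. Both act in gut and liver epithelia, where KRT8 and KRT18 are expressed. No RNA was analysed here, so the peaks say where a factor was found near a keratin gene and not whether the gene was expressed.

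Sequences below are the plus strand of GRCh37 (hg19), 5′ to 3′, for the sites to which the results return. They are in lower case, and capitals mark a forkhead core (TGTTTAC or TATTTAC, either strand) or an HNF4 core (CAAAGTCCA, either strand). The first is the middle of the highest-scoring FOXA1 peak of all keratin windows, between KRT6B and KRT6C. The second is a FOXA1 peak near KRT37 that all 3 altered forms overlapped. The third is the middle of the highest-scoring HNF4A peak, which lies beside it. The fourth is the stretch near KRT7 shared by a FOXA1 and an HNF4A peak. The fifth is the middle of an HNF4A peak in an intron of KRT86 that holds an HNF4 core, read on the minus strand.
FOXA1 near KRT6B, chr12:52847140-52847339: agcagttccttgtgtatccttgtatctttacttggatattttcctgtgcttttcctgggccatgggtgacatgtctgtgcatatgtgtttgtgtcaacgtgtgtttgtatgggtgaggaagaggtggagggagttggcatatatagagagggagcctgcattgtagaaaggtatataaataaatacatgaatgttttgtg
FOXA1 near KRT37, chr17:39574097-39574382: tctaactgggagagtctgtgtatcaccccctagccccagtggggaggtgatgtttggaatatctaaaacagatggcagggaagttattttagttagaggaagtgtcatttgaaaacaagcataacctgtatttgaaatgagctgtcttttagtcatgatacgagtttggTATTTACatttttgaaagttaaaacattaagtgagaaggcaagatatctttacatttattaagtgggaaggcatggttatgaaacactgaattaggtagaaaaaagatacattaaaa
HNF4A near KRT37, chr17:39572316-39572515: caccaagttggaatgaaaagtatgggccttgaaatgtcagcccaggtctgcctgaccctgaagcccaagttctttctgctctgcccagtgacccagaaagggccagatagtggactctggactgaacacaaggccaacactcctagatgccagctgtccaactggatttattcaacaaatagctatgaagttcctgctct
FOXA1 and HNF4A near KRT7, chr12:52624201-52624289: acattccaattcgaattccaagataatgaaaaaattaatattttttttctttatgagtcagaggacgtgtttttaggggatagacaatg
HNF4A in KRT86, chr12:52671450-52671649: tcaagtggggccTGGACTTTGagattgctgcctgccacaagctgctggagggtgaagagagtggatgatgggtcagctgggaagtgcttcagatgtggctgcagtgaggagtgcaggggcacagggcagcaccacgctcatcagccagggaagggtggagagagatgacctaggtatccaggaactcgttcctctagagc

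In all 5 lists the share of keratin genes with a peak in their window was below that of protein-coding genes at large. FOXA1 peaks lay in the windows of 35 of the 55 genes (63.6%, 95% Wilson interval 50.4 to 75.1), against 77.2% of all genes. FOXA1dbd peaks lay in 17 windows (30.9%, 20.3 to 44), against 47.2%. Both intervals ended below the share of all genes. For FOXA1nhaa the count was 33 (60%, 46.8 to 71.9), against 70.8%, and for FOXA1rraa it was 21 (38.2%, 26.5 to 51.4), against 62.9%. HNF4A peaks lay in 30 windows (54.5%, 41.5 to 67), against 77.4%. Of these 3 intervals, that of FOXA1nhaa included the share of all genes and those of FOXA1rraa and HNF4A did not. These intervals cover counting error alone, and they treat genes as separate although neighbouring windows overlap: 29 of the 48 FOXA1 peaks and 27 of the 40 HNF4A peaks lay in more than 1 keratin window. The median keratin gene had 1 FOXA1 peak, while the median over all genes was 3. For HNF4A the medians were 1 and 2. The order of the factors depends on list length: when each list was cut to its top 28831 peaks by score, FOXA1 reached 10 keratin genes (18.2%, against 46% of all genes) and HNF4A 25 (45.5%, against 71.8%).

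Keratin genes are short. The median keratin gene spans 7.1 kb in a window of 47.1 kb, whereas the median protein-coding gene spans 27.6 kb in a window of 67.6 kb. In windows of the same length for every gene, 20 kb either side of the gene start, FOXA1 peaks reached 32 keratin genes (58.2% against 68.1% of all genes), FOXA1dbd 13 (23.6% against 30.5%) and FOXA1nhaa 30 (54.5% against 59.4%). FOXA1rraa reached 18 (32.7% against 49.4%) and HNF4A 27 (49.1% against 66.8%). There the keratin share stayed the lower in each list, but the Wilson intervals of FOXA1 (45 to 70.3), FOXA1dbd (14.4 to 36.3) and FOXA1nhaa (41.5 to 67) included the share of all genes, and those of FOXA1rraa (21.8 to 45.9) and HNF4A (36.4 to 61.9) did not. Inside gene bodies FOXA1 had peaks in 10 keratin genes (18.2% against 55.3%), FOXA1dbd in 3 (5.45% against 32.6%), FOXA1nhaa in 5 (9.09% against 50.9%), FOXA1rraa in 4 (7.27% against 45.3%) and HNF4A in 9 (16.4% against 58.5%).

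At their starts the share of keratin genes with a FOXA1 peak was close to that of all genes, and the share with an HNF4A peak was far below it. Within 1000 bp of the annotated start, FOXA1 had peaks at 5 keratin genes (9.09%, 3.95 to 19.6), close to the 9.74% of all genes. HNF4A had them at 3 (5.45%, 1.87 to 14.9), although 41.4% of all genes had an HNF4A peak there. FOXA1nhaa had 3 (5.45% against 6.42%), FOXA1rraa 1 (1.82% against 4.19%) and FOXA1dbd 0 (at most 6.53% by the Wilson interval, against 2.17%). The 5 genes with FOXA1 at the start were KRT81, a hair keratin, KRT6B, which epidermis makes on wounding, KRT4 of the mucosa, KRT10 of the upper epidermis with 2 such peaks, and KRT12 of the cornea. FOXA1nhaa peaks sat at the starts of KRT6C, KRT10 and KRT12, and the FOXA1rraa peak at that of KRT81 was a row of the FOXA1 list. The 3 HNF4A genes were KRT8 and KRT18, whose annotated starts lie side by side, and KRT15 of the basal epidermis. KRT8 and KRT18 shared the same peak, with a score of 33 (percentile 2.1 of the HNF4A list). The peak at the annotated KRT15 start had a score of 27 (percentile 0.867). The annotation gives KRT8 a long transcript that begins beside KRT18 at position 53343738, far from its canonical start at position 53298860. No HNF4A peak lay within 1000 bp of that canonical start. An HNF4A peak of score 117 was centred 331 bp from the canonical start of KRT15. KRT40 had a FOXA1 peak centred 508 bp from its canonical start, and none within 1000 bp of its annotated start.

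The start-proximal FOXA1 peaks of KRT81 and KRT12 and the KRT10 peak of score 243 hold a forkhead core in their central 200 bp. Those of KRT6B and KRT4 and the KRT10 peak of score 91 do not. In the whole FOXA1 list 18.2% of peaks hold a core. The sites are shown on the strand of the core with 10 bases on either side.
KRT81, chr12:52685960-52685986, plus strand: atgctccaccTGTTTACcccgattcaa
KRT10, chr17:38977912-38977938, minus strand: tatgctaggcTATTTACaaatgtagaa
KRT12, chr17:39024288-39024314, minus strand: aaatctgaagTGTTTACacaatccatt
The KRT81 peak had a score of 133, the KRT10 peak 243 and the KRT12 peak 83 in the FOXA1 list, where the score is the authors' own value for a peak and ranks peaks within 1 list only. Their centres lay 690 bp, 958 bp and 805 bp from the canonical gene starts. These scores stand at the percentiles 54.2, 84.5 and 27.5 of the FOXA1 list, so KRT10 had the strongest of the 3.

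**Figure D1:**
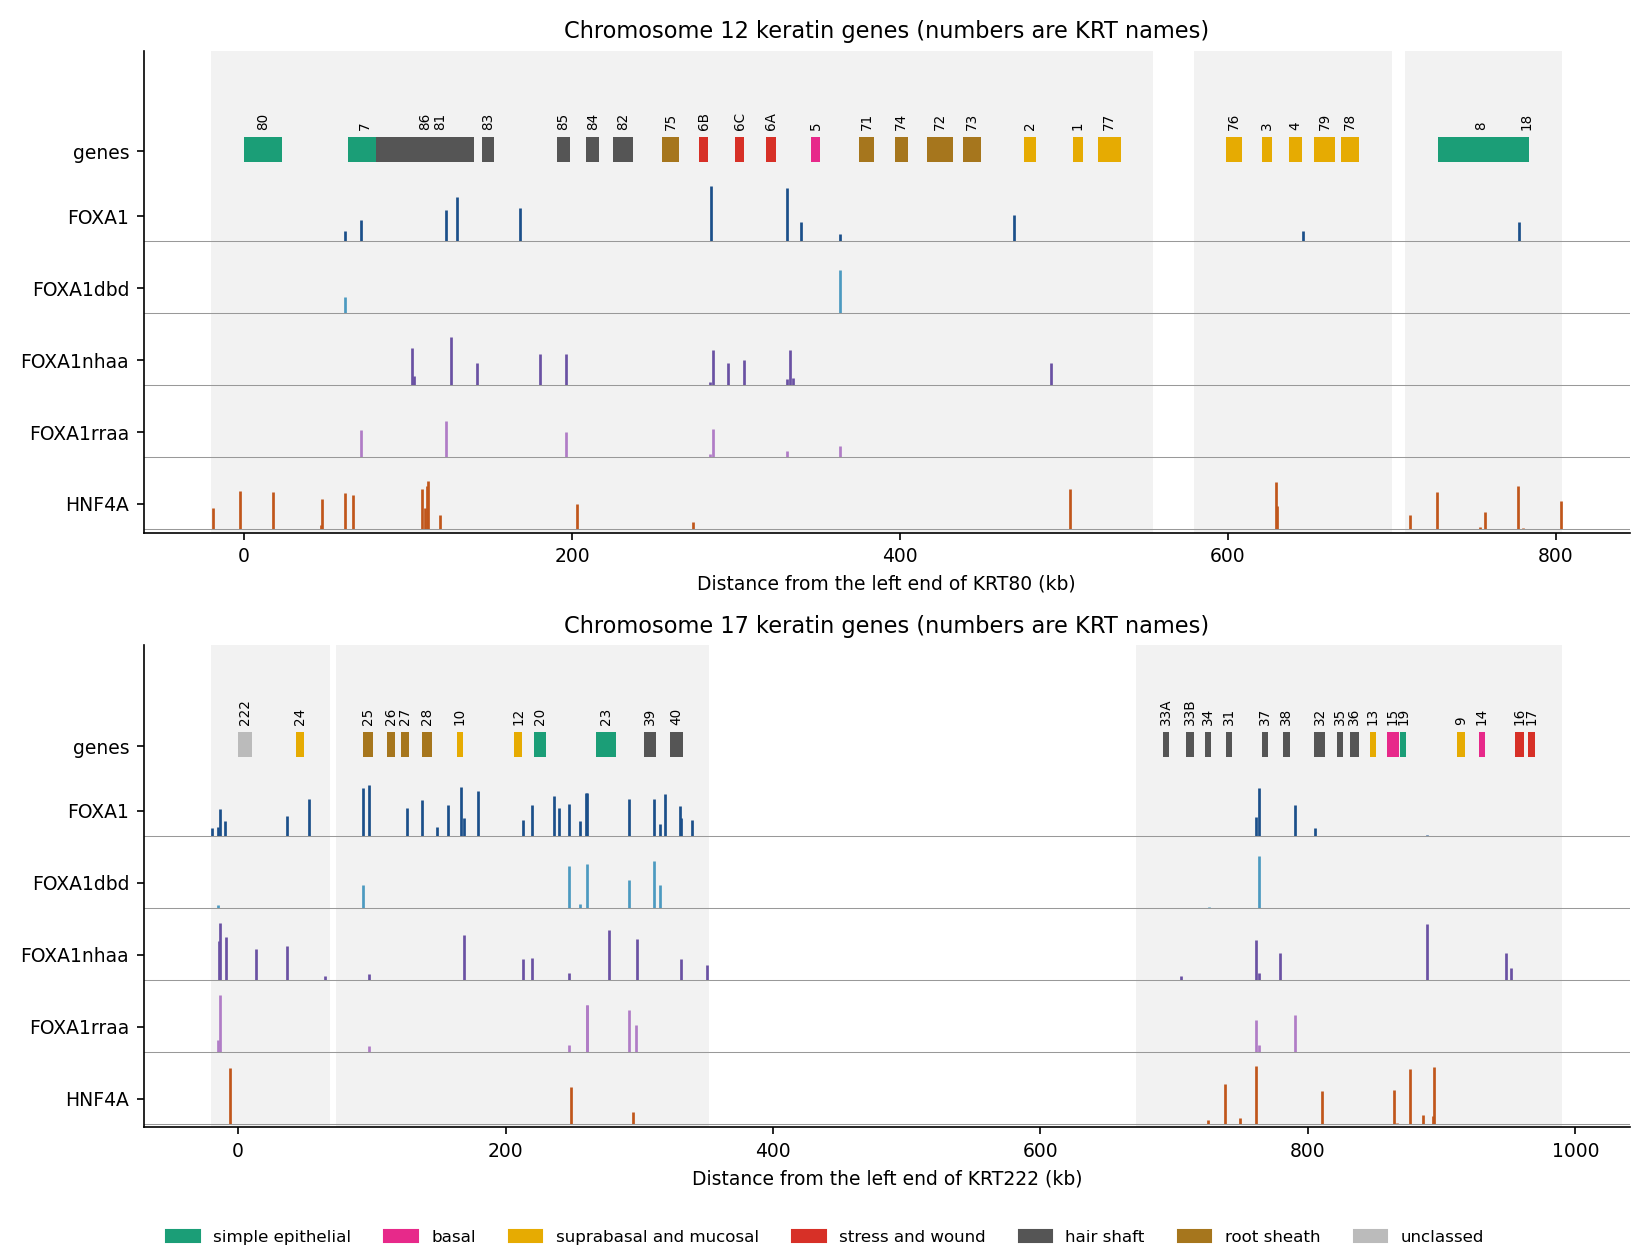
Peaks along the keratin clusters of chromosomes 12 and 17. The horizontal axis is the distance in kb from the left end of KRT80 or KRT222, grey bands are the merged keratin windows, coloured boxes are the genes by role, and each vertical line is a peak whose height is its score percentile (0 to 100%) within its own list. FOXA1 lines crowd the windows from KRT25 to KRT40, where the HNF4A list has 2 peaks, and the KRT80 and KRT8 to KRT18 windows show 4 and 7 HNF4A lines with 0 and 1 FOXA1 lines.

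Overlapping windows were merged so that each peak was counted once, which left 7 stretches with 1.48 Mb in all. FOXA1 had 32.5 peaks per Mb of keratin window (exact Poisson interval 24 to 43.1), against 73.8 per Mb over the merged windows of all protein-coding genes. FOXA1nhaa had 24.4 (17.1 to 33.7) against 49.1 and FOXA1rraa 12.2 (7.22 to 19.3) against 34.1. FOXA1dbd had 9.47 (5.18 to 15.9) against 13.2, and HNF4A 27.1 (19.3 to 36.9) against 20.1, so for these 2 lists the value over all genes lay inside the interval. HNF4A was thus found near a smaller share of keratin genes than of genes at large, while its peaks per Mb of window were not lower.

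FOXA1 peaks were denser in the chromosome 17 cluster than in that of chromosome 12. On chromosome 17 FOXA1 had 36 peaks (52.4 per Mb, 36.7 to 72.6) and on chromosome 12 it had 12 (15.2 per Mb, 7.84 to 26.5). FOXA1dbd followed with 12 peaks on chromosome 17 (17.5 per Mb) and 2 on chromosome 12 (2.53 per Mb). FOXA1nhaa had 22 and 14 peaks (32 and 17.7 per Mb), and FOXA1rraa 11 and 7 (16 and 8.85 per Mb). HNF4A had the reverse order, with 15 peaks on chromosome 17 (21.8 per Mb, 12.2 to 36) and 25 on chromosome 12 (31.6 per Mb, 20.5 to 46.7). The Poisson intervals of the 2 chromosomes did not overlap for FOXA1, and for the other 4 lists they did.

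Within chromosome 17 the FOXA1 peaks were spread unevenly over the keratin windows. The window from KRT25 to KRT40 spans 279.1 kb and has 10 genes. FOXA1 had 25 peaks there (89.6 per Mb, against 73.8 over all protein-coding genes), FOXA1dbd 9, FOXA1nhaa 9, FOXA1rraa 6 and HNF4A 2 (7.17 per Mb). The genes of this window encode type I keratins of the root sheath, upper epidermis, cornea, gut lining and hair. The neighbouring window of KRT222 and KRT24 (89.09 kb) had 6 FOXA1 peaks (67.3 per Mb) and 1 HNF4A peak (11.2 per Mb). On the other side, the 319 kb between the KRT40 and KRT33A windows held 23 FOXA1 peaks and 4 HNF4A peaks. Beyond the keratin-associated protein genes, the window from KRT33A to KRT17 (318.8 kb, 16 genes) had 5 FOXA1 peaks (15.7 per Mb), 2 FOXA1dbd, 7 FOXA1nhaa, 3 FOXA1rraa and 12 HNF4A peaks (37.6 per Mb). There HNF4A had more peaks than FOXA1, the reverse of the window from KRT25 to KRT40. On chromosome 12 the window from KRT7 to KRT77 (511 kb, 19 genes) held 10 FOXA1, 2 FOXA1dbd, 14 FOXA1nhaa, 7 FOXA1rraa and 12 HNF4A peaks. The windows of KRT80 (63.02 kb) and of KRT8 with KRT18 (95.72 kb) held 4 and 7 HNF4A peaks (63.5 and 73.1 per Mb), 0 and 1 FOXA1 peaks, and none of the 3 altered forms. The window from KRT76 to KRT78 (120.9 kb) held 1 FOXA1 and 2 HNF4A peaks.

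Base composition set the windows of KRT25 to KRT40 and of KRT222 and KRT24 apart from the other 5. The windows with the most FOXA1 peaks per Mb were the poorest in G and C, at 40% (KRT25 to KRT40) and 39.6% (KRT222 and KRT24), and 6.88% and 9.44% of their 200-bp tiles held a forkhead core. In the other 5 windows G+C content lay between 48.3% and 54.6% and the share of such tiles between 3.14% and 4.3%. FOXA1 peaks themselves were poor in G and C (median 33.5% in the central 200 bp), and HNF4A peaks were rich (54.5%). The whole lists had nearly the same medians, 32.5% for FOXA1 and 52.5% for HNF4A. The part of base composition in the spread of the peaks was not tested.

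**Figure D2:**
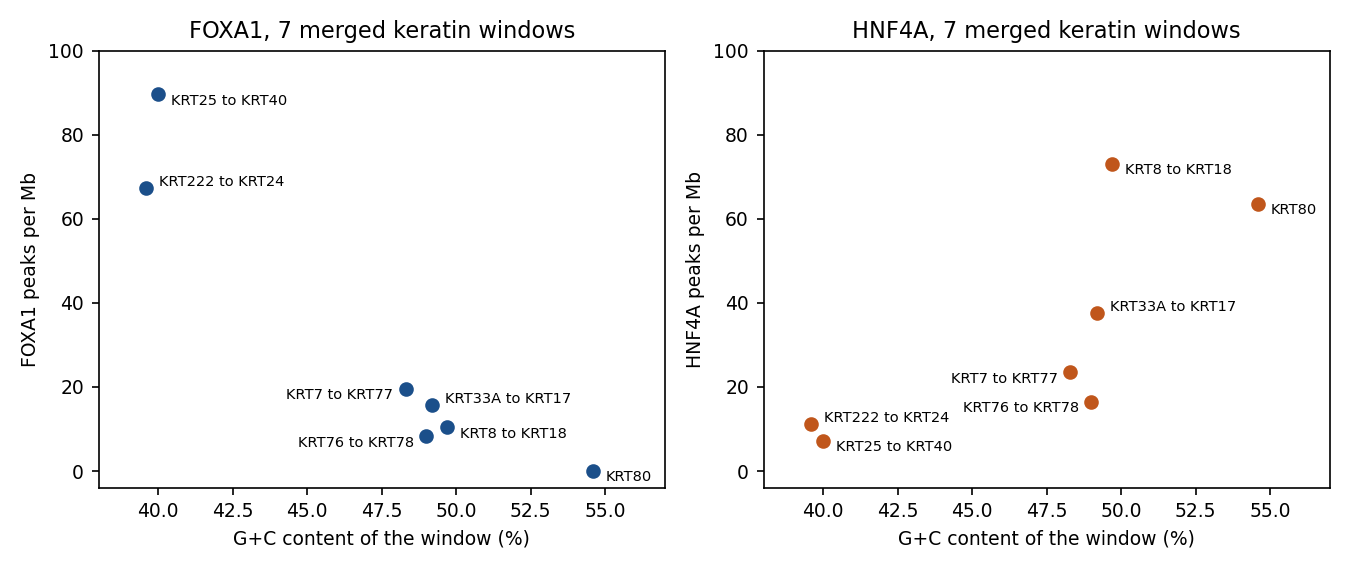
Peaks per Mb (vertical axis) against G+C content in percent (horizontal axis) for the 7 merged keratin windows, each point a window named by its first and last gene, for FOXA1 (left) and HNF4A (right). The KRT25 to KRT40 window stands highest for FOXA1 (89.6 per Mb) and lowest for HNF4A (7.17 per Mb), and the KRT80 window has 0 FOXA1 peaks and 63.5 HNF4A peaks per Mb.

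Keratins of simple epithelia were the class with HNF4A peaks in every window. All 7 of these genes had HNF4A in their windows (77.4% of all genes did), with 22 distinct peaks or 60.3 per Mb (37.8 to 91.3), and 6 of 7 had FOXA1 (77.2% of all genes). KRT7, of ducts and glands, had 2 FOXA1, 1 FOXA1dbd, 1 FOXA1nhaa, 1 FOXA1rraa and 4 HNF4A peaks. KRT8 had 1 FOXA1 peak, 0 peaks of the 3 altered forms and 6 HNF4A peaks, and its partner KRT18 had 1, 0 and 3. The FOXA1 peak these 2 genes share was 93 bp wide, had a score of 93 and lay 2511 bp from the KRT18 start, within an intron of the long KRT8 transcript. The HNF4A peaks around KRT8 and KRT18 had scores from 33 to 175, the lowest of them at the KRT18 start, where G+C content reached 79%.

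KRT19, the smallest keratin and a marker of ductal epithelia, had 1 FOXA1, 0 FOXA1dbd, 1 FOXA1nhaa, 0 FOXA1rraa and 5 HNF4A peaks. Its strongest HNF4A peak had a score of 422 (authors' fold enrichment 12.1) and lay 2739 bp from the gene start, at chr17:39686405-39687527. The FOXA1 peak near KRT19 had a score of 34, at percentile 1.58 of its list, while the FOXA1nhaa peak over it had 250, at percentile 96.8. KRT20, of the gut lining, was the opposite case, with 5 FOXA1, 2 FOXA1dbd, 3 FOXA1nhaa, 1 FOXA1rraa and 1 HNF4A peaks. KRT23 had 5 FOXA1, 4 FOXA1dbd, 2 FOXA1nhaa, 4 FOXA1rraa and 2 HNF4A peaks, and KRT80 had 4 HNF4A peaks and 0 of every FOXA1 construct. So among simple-epithelial keratins the chromosome 17 genes KRT20 and KRT23 carried most FOXA1 peaks, and KRT8, KRT18, KRT19 and KRT80 mostly HNF4A peaks.

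The basal keratins differed from gene to gene. KRT5, the type II chain of the basal epidermis, had 3 FOXA1, 1 FOXA1dbd, 3 FOXA1nhaa, 2 FOXA1rraa and 0 HNF4A peaks. Its partner KRT14 had 2 FOXA1nhaa peaks and 0 in the other 4 lists. KRT15 had 5 HNF4A peaks and 0 of every FOXA1 construct. Most of these HNF4A peaks, among them that of score 422, also lay in the window of its neighbour KRT19. The 3 FOXA1 peaks of KRT5 likewise lay in the window of KRT6A or KRT71 as well. The KRT5 and KRT15 windows thus held peaks of different factors, but these peaks were not particular to the 2 genes.

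Among the 13 suprabasal and mucosal keratins, 7 had FOXA1 in their windows (77.2% of all genes did), 1 FOXA1dbd (47.2%), 5 FOXA1nhaa (70.8%), 0 FOXA1rraa (62.9%) and 6 HNF4A (77.4%). FOXA1rraa had 0 peaks over the 0.446 Mb of these windows, which allows up to 8.28 per Mb by the Poisson interval, below its 34.1 per Mb over all genes. The other FOXA1 lists were lower there too. FOXA1 had 24.7 per Mb (12.3 to 44.2) against 73.8, FOXA1dbd 2.24 (0.0568 to 12.5) against 13.2 and FOXA1nhaa 13.5 (4.94 to 29.3) against 49.1. For HNF4A (17.9, 7.75 to 35.4) the interval included the 20.1 of all genes. KRT10 had 5 FOXA1 peaks and 1 FOXA1nhaa peak, and 0 in the other 3 lists. Its type II partner KRT1 had 0 FOXA1, 0 FOXA1dbd, 1 FOXA1nhaa, 0 FOXA1rraa and 1 HNF4A peaks. KRT4 and KRT13, the mucosal pair, had 1 FOXA1 and 2 HNF4A peaks (KRT4) and 3 HNF4A peaks (KRT13). The corneal pair KRT3 and KRT12 had 1 FOXA1 and 2 HNF4A peaks (KRT3), and 2 FOXA1, 1 FOXA1dbd and 2 FOXA1nhaa peaks (KRT12). KRT24 had 2 FOXA1 and 2 FOXA1nhaa peaks and KRT2, of the outermost living epidermis, 1 of each. KRT79 had 1 FOXA1 peak, KRT77 1 HNF4A peak and KRT9, of palms and soles, 2 HNF4A peaks. The FOXA1 peak of KRT3, KRT4 and KRT79 was the same peak, and KRT3 and KRT4 shared the same 2 HNF4A peaks. KRT10 thus had FOXA1 peaks while its partner KRT1 had none.

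The windows of all 5 stress and wound keratins held FOXA1nhaa peaks, but each of these peaks also lay in the window of a neighbouring keratin. All 5 had FOXA1nhaa in their windows (70.8% of all genes did), 3 had FOXA1 (77.2%), 0 FOXA1dbd (47.2%), 3 FOXA1rraa (62.9%) and 1 HNF4A (77.4%). FOXA1nhaa had 9 peaks over 0.142 Mb (63.5 per Mb, 29 to 121), an interval that includes its 49.1 per Mb over all genes. FOXA1 had 3 peaks there (21.2 per Mb, 4.37 to 61.9), and the intervals of the 2 lists overlap. KRT6A and KRT6C each had 4 FOXA1nhaa peaks, KRT6B had 3, and KRT16 and KRT17 shared the same 2. KRT6A, KRT6B and KRT6C are near-identical copies, so reads from them may be hard to place, and how such reads were treated is not given in the sources used here. Most of these FOXA1nhaa peaks lay between the genes and not within them.

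Of the 17 hair shaft keratins, 10 had FOXA1 (77.2% of all genes did), 8 FOXA1dbd (47.2%), 13 FOXA1nhaa (70.8%), 9 FOXA1rraa (62.9%) and 13 HNF4A (77.4%). For FOXA1dbd and HNF4A these counts are near the share of all genes. KRT86 had the most HNF4A peaks of any keratin, 7, beside 4 FOXA1, 1 FOXA1dbd, 4 FOXA1nhaa and 2 FOXA1rraa peaks, in an annotated window of 99.9 kb, the longest of the 55. KRT39 and KRT40 had the most FOXA1 peaks, 6 each. KRT39 also had 3 FOXA1dbd, 2 FOXA1nhaa, 2 FOXA1rraa and 1 HNF4A peaks, and KRT40 had 2, 2, 0 and 0. KRT81, whose gene lies within that of KRT86, had 2 FOXA1, 0 FOXA1dbd, 4 FOXA1nhaa, 1 FOXA1rraa and 5 HNF4A peaks, and KRT31 had 1 of each FOXA1 construct and 4 of HNF4A. The other 11 hair genes besides KRT37 had from 0 to 3 peaks in any list. Next to KRT37, the HNF4A peak printed above had a score of 994, at percentile 99.7 of the HNF4A list, and a fold enrichment of 22.9. It lay 8421 bp from the KRT37 start in an intron of a long noncoding RNA gene, between a FOXA1 peak of score 93 and one of score 233, and overlapped neither.

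The 9 root sheath keratins, which line the hair follicle, were split by chromosome. FOXA1 lay in the windows of 7 of them (77.2% of all genes, so near that share), FOXA1dbd of 3 (47.2%), FOXA1nhaa of 3 (70.8%) and FOXA1rraa of 4 (62.9%). HNF4A lay in that of 1 (77.4% of all genes), KRT75, with 1 peak. The type I members on chromosome 17 carried most FOXA1 peaks, with 2 for KRT25, 4 for KRT26, 2 for KRT27 and 4 for KRT28. These counts share peaks and cannot be added. Both KRT25 peaks also lay in the KRT26 window, and both KRT27 peaks in those of KRT26 and KRT28. The type II members KRT71, KRT73 and KRT75 had 1 each, and KRT72 and KRT74 had 0 peaks of any list. An intron of KRT25 held a FOXA1 peak of score 282, and an exon one of 241. KRT222, a keratin-like gene outside these classes, had 4 FOXA1, 1 FOXA1dbd, 4 FOXA1nhaa, 2 FOXA1rraa and 1 HNF4A peaks, several of them in or at the start of the neighbouring gene SMARCE1, a subunit of the SWI/SNF chromatin remodelling complex. The highest-scoring keratin-window peak of FOXA1nhaa lay there (score 379, fold enrichment 14.9), and the same row was the highest of FOXA1rraa.

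**Figure D3:**
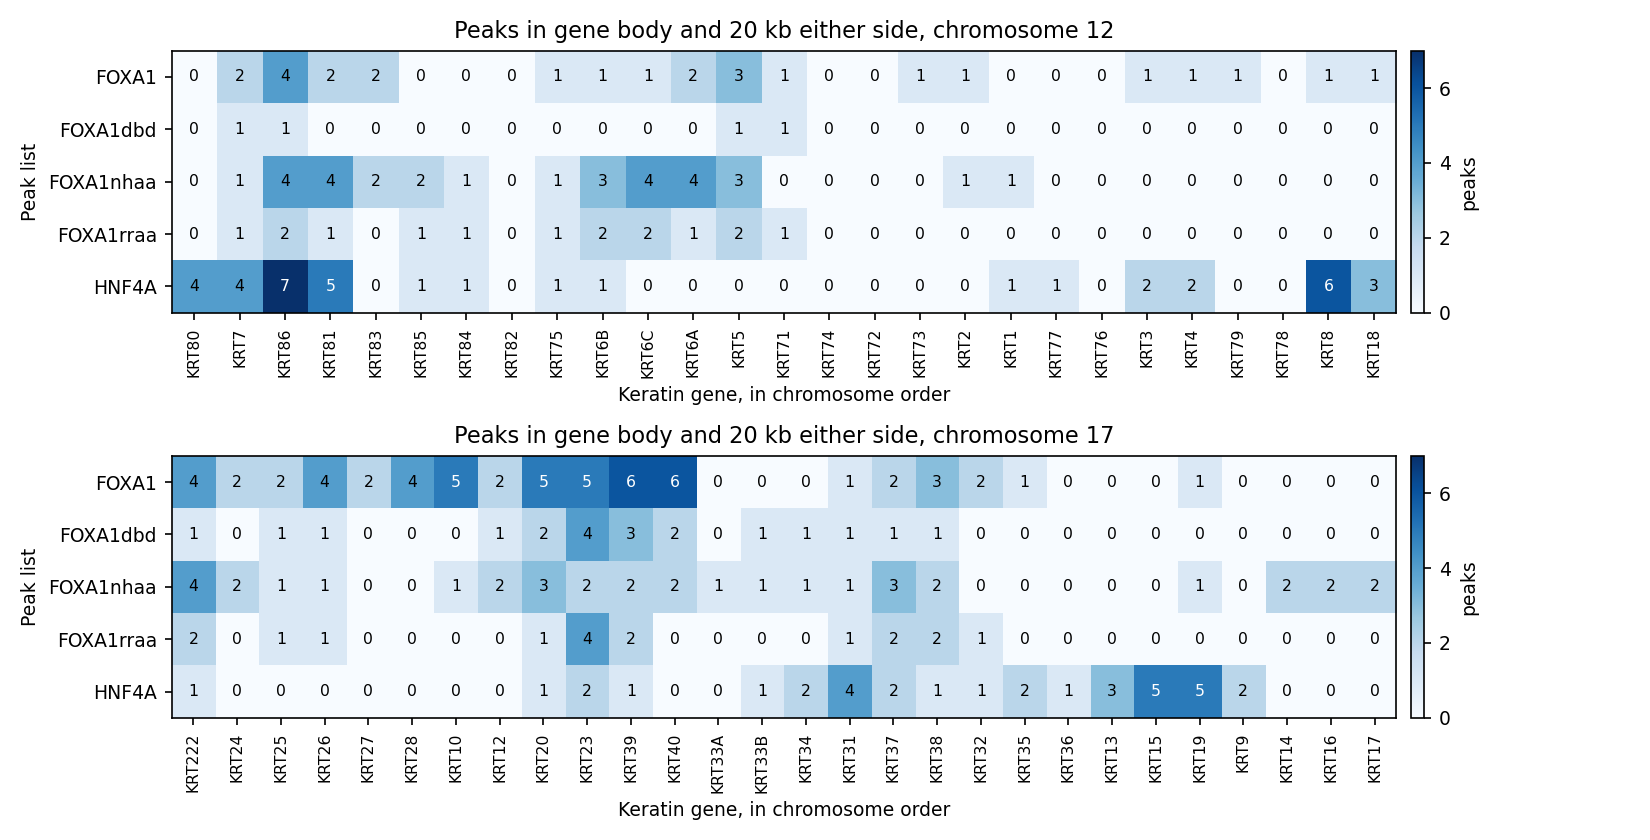
Number of peaks in the window of each keratin gene (columns, in chromosome order) for each of the 5 lists (rows), with darker cells for more peaks. The largest counts are 7 HNF4A peaks at KRT86, 6 HNF4A peaks at KRT8 and 6 FOXA1 peaks at KRT39 and at KRT40, and KRT82, KRT74, KRT72, KRT76 and KRT78 show 0 in every list.

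A total of 9 keratin genes had a peak of all 5 lists, namely KRT7, KRT86, KRT222, KRT20, KRT23, KRT39, KRT31, KRT37 and KRT38, whereas 36.7% of all protein-coding genes did. The 5 genes with none were KRT82, KRT74, KRT72, KRT76 and KRT78 (7.02% of all genes had none). At least 1 FOXA1 construct but no HNF4A lay in the windows of 20 genes (15.6% of all genes), HNF4A alone in 6 (KRT80, KRT77, KRT36, KRT13, KRT15 and KRT9; 10.4%) and both in 24 (66.9%). The longest stretch of keratin window free of all 5 lists was 106 kb on chromosome 12 and holds KRT71, KRT74, KRT72 and KRT73. HNF4A left 229 kb there without a peak, from KRT6B to KRT2 with 9 genes, and 175 kb on chromosome 17 with the 7 genes from KRT25 to KRT20. The longest stretches free of every FOXA1 construct were on chromosome 12, the same 106 kb and 87.4 kb with KRT84, KRT82, KRT75 and KRT6B. On chromosome 17 the FOXA1 constructs together left 83.6 kb with KRT35, KRT36, KRT13, KRT15 and KRT19. A list holds only peaks past the authors' threshold (the lowest score was 20), so a gene without a peak is not shown to lack binding.

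**Figure D4:**
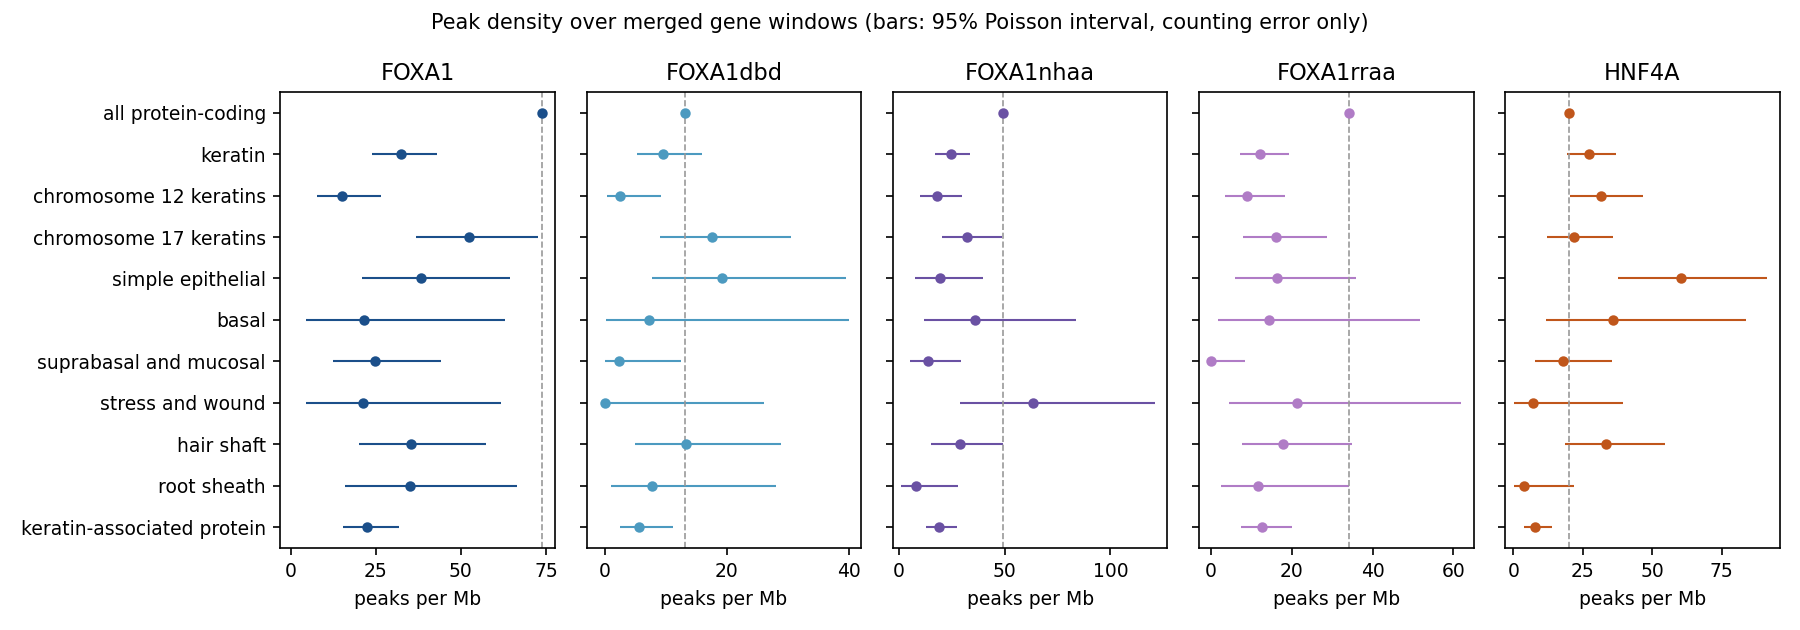
Peaks per Mb of merged gene window (horizontal axis) for each list (panels) and gene group (vertical axis). Points are the density, bars the 95% exact Poisson interval and the dashed line the value over all autosomal protein-coding genes. FOXA1 lies left of its line for keratins (32.5 against 73.8), and simple-epithelial keratins lie right of the line for HNF4A (60.3 against 20.1).

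The altered forms overlapped between 27.1% and 31.2% of the FOXA1 peaks near keratins. FOXA1dbd overlapped 13 of the 48 (27.1%, Wilson interval 16.6 to 41), against 17.3% of the whole FOXA1 list. FOXA1nhaa overlapped 14 (29.2%, 18.2 to 43.2), against 39.7%, and FOXA1rraa 15 (31.2%, 19.9 to 45.3), against 39.9%. All 3 intervals included the value of the whole list. No altered form overlapped 20 of the 48 (41.7%, against 41.5%). All 3 overlapped 2 of them (4.17%, against 8.21%). These were the peak near KRT37 printed above and a peak upstream of KRT20 at chr17:39058306-39058705 with a score of 136. At both sites the FOXA1rraa row was a row of the FOXA1nhaa list, so these lists do not count separately there.

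The deposited lists shape these overlaps. Of the 14 FOXA1dbd peaks, 13 overlapped a FOXA1 peak (92.9%, 68.5 to 98.7, against 96.2% of its whole list). All 13 lay wholly inside it, 10 of them with a start or end in common. Of the 36 FOXA1nhaa peaks 14 overlapped a FOXA1 peak (38.9%, 24.8 to 55.1, against 58.4% of its whole list), 4 lay wholly inside it, and 0 shared an end. The 18 FOXA1rraa rows were made up of 8 rows of the FOXA1 list, 9 rows of the FOXA1nhaa list and 1 row found in neither. In the whole FOXA1rraa list of 71202 rows the corresponding numbers were 23216, 41253 and 6733. Without the 8 FOXA1 rows, FOXA1rraa overlapped 7 of the 48 FOXA1 peaks (14.6%, 7.25 to 27.2), against 25% of the whole list. HNF4A overlapped 1 of the 48 (2.08%, against 1.68%), and 0 when 50% of the shorter peak had to be shared (against 1.09%). That site lies upstream of KRT7, where a FOXA1 peak of score 69, a FOXA1dbd peak of score 48 and an HNF4A peak of score 127 meet, and 89 bases are common to FOXA1 and HNF4A. Merging all peaks gave 111 sites, of which 81 belonged to 1 list. Of these, 39 belonged to HNF4A, 20 to FOXA1, 20 to FOXA1nhaa and 1 each to FOXA1dbd and FOXA1rraa. The whole lists were not merged in this way, so these site counts have no background.

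Where FOXA1 and FOXA1nhaa peaks overlapped near keratins, they mostly ranked in opposite ways. This comparison was chosen after the values were seen. In 6 of the 14 pairs (42.9%) the FOXA1 peak was above the median score of its list and the FOXA1nhaa peak was not. Over the whole lists this held for 26.4% of pairs. In 6 pairs the reverse held (42.9%, against 18.5%), and in 2 neither was above (14.3%, against 17.3%). Both were above in 0 of 14 pairs (Wilson interval 0 to 21.5%), whereas over the whole lists both were above in 37.8% of 63702 pairs. The highest-scoring FOXA1 peak near keratins, the site near KRT6B printed above, had a score of 364 (percentile 95.5), and the FOXA1nhaa peak over it had 43 (percentile 5.18). The peak near KRT6A had 322 in the FOXA1 list (percentile 93) and 52 in the FOXA1nhaa list (percentile 11.3). At SMARCE1 in the KRT222 window the FOXA1 peak had 116 (percentile 46.2) and the FOXA1nhaa peak 379 (percentile 99.5). FOXA1dbd ranked otherwise, with both above the median in 4 of 13 pairs (30.8%, 12.7 to 57.6), against 35.3% over the whole lists. Percentiles rank peaks within a list and do not measure a change in binding between constructs.

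**Figure D5:**
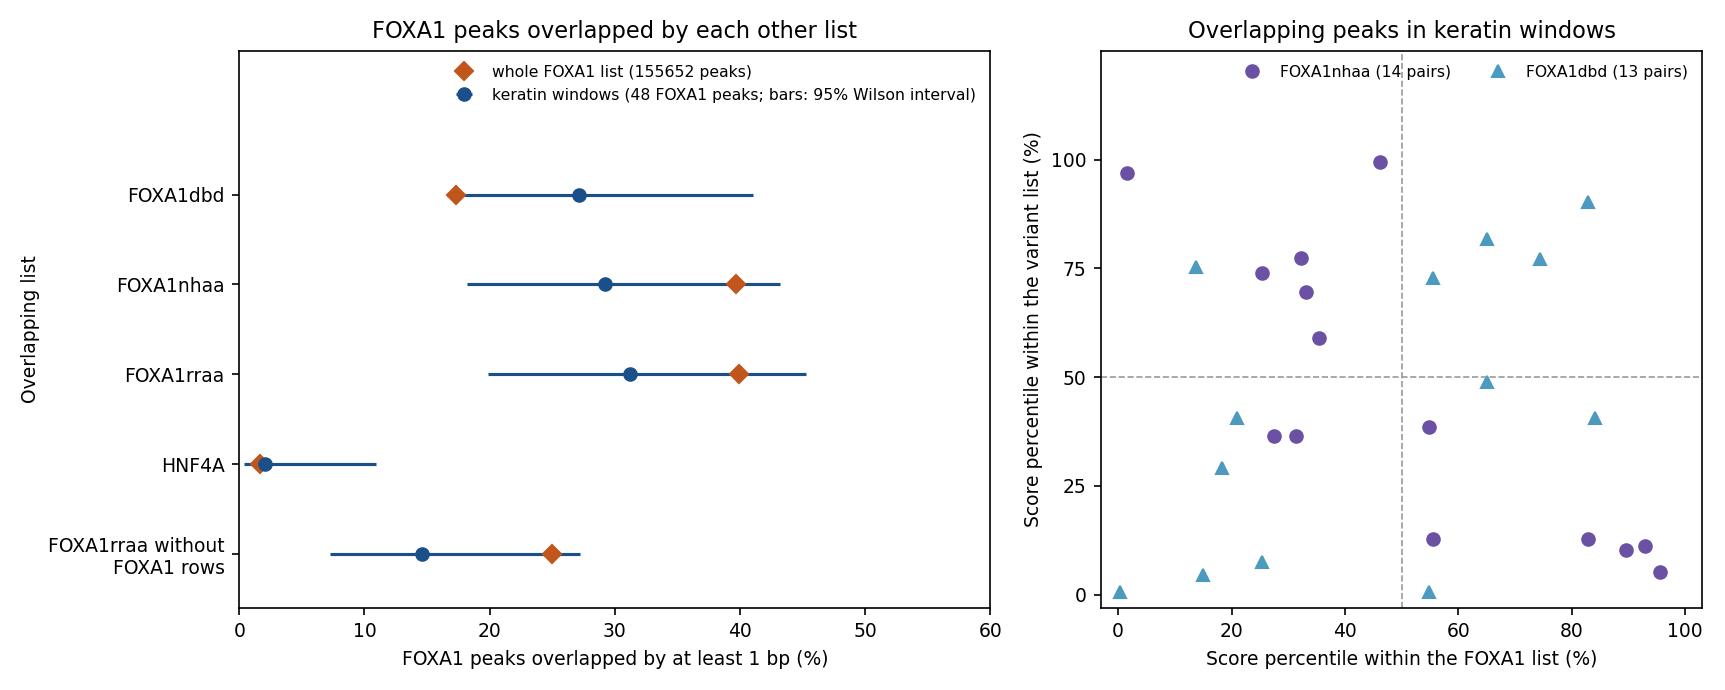
Left, the percentage of FOXA1 peaks overlapped by each other list in keratin windows (circles, with 95% Wilson intervals) and in the whole list (diamonds). Right, score percentiles of overlapping pairs in keratin windows, with the FOXA1 peak on the horizontal axis, the variant peak on the vertical axis and dashed lines at the medians of the lists. The upper right quadrant holds 0 of 14 FOXA1nhaa pairs and 4 of 13 FOXA1dbd pairs.

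Peaks outside FOXA1 peaks were mostly those of FOXA1nhaa and HNF4A. For FOXA1nhaa the highest of them lay in an intron of KRT23 (score 169, chr17:39087726-39088594), in an intron of KRT86 (151) and beyond KRT23 towards KRT39 (122). The only FOXA1dbd peak outside FOXA1 was weak, with a score of 24 in an intron of KRT34. The FOXA1rraa row found in no other list had a score of 99 and lay 14371 bp from the KRT23 start. After the KRT37 peak, the highest HNF4A peaks had scores of 630 (in the KRT9 window, at chr17:39705070-39705690) and 530 (at the start of SMARCE1). Near keratins 92.9% of FOXA1dbd and 83.3% of FOXA1rraa peaks overlapped a FOXA1 peak, close to their whole lists (96.2% and 86.8%). For FOXA1nhaa the share was 38.9% (58.4%) and for HNF4A 2.5% (6.76%). Of the 111 merged sites 0 held all 5 lists.

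Median scores of keratin-window peaks lay close to those of their lists. FOXA1 peaks had a median score of 120 (124 in the whole list), and FOXA1dbd peaks one of 55 (61). In the FOXA1nhaa list it was 85 (89), in the FOXA1rraa list 100 (106) and among HNF4A peaks 101.5 (99). Their place differed more. Of the FOXA1 peaks 25% lay within 1000 bp of a transcript start of any gene (8.87% in the whole list) and 25% in introns (64.6%). For HNF4A the share near starts was 22.5% (38.4%), so that FOXA1 and HNF4A, far apart over the whole lists, stood close together here. The median distance from a peak centre to the nearest canonical keratin start was 7300 bp for FOXA1 and 6552 bp for HNF4A.

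Of the 48 FOXA1 peaks, 10 had a forkhead core within 200 bp about their centre (20.8%, 11.7 to 34.3), against 18.2% of the whole list and 4.86% of 200-bp tiles of the keratin windows. The shares were 14.3% for FOXA1dbd (2 of 14, against 22.1%), 5.56% for FOXA1nhaa (2 of 36, 1.54 to 18.1, against 13.6%, or 11.1% against 13.7% when taken about the midpoint) and 22.2% for FOXA1rraa (4 of 18, against 20%, though 5.56% against 8.81% with TGTTTAC alone). HNF4A had forkhead cores in 2 of 40 peaks (5%, against 3.25%) and an HNF4 core in 1 (2.5%, against 0.992% of its list and 0.298% of tiles, but 0% against 0.609% in the central 100 bp). The stretches about these 10 FOXA1 peaks had 11 cores, 6 of them TGTTTAC and 5 TATTTAC. The stretch searched is wider than some peaks, and near KRT5 the core runs past the end of the peak. Near KRT7 a single peak had 2 cores in almost the same setting. These and the cores near KRT83, KRT20 and KRT38 are shown on the strand of the core.
KRT7 first core, chr12:52633921-52633947, minus strand: tacacatgtgTGTTTACacataaataa
KRT7 second core, chr12:52634009-52634035, minus strand: cacacaggtgTGTTTACacataaataa
KRT83, chr12:52731356-52731382, minus strand: tatatatttaTGTTTACcagtaaaatt
KRT20, chr17:39047191-39047217, minus strand: tatcgttcaaTATTTACaagagtttct
KRT38, chr17:39601098-39601124, minus strand: attgtgggagTATTTACaccacagaaa
A core is a match of letters and not a measured contact. The highest-scoring FOXA1 peak, near KRT6B, and the shared site near KRT7 hold no forkhead core in the stretches printed, which says only that these 2 spellings are not there.

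Other genes of the filament family and of the hair gave a scale for the keratin values. Of 15 other intermediate filament genes, 10 had FOXA1 in their windows (66.7%, against 77.2% of all genes), 4 FOXA1dbd (26.7% against 47.2%), 8 FOXA1nhaa (53.3% against 70.8%), 6 FOXA1rraa (40% against 62.9%) and 11 HNF4A (73.3% against 77.4%). Vimentin (VIM), the filament protein of fibroblasts, had 11 FOXA1, 6 FOXA1dbd, 6 FOXA1nhaa, 3 FOXA1rraa and 5 HNF4A peaks in a window of 49.4 kb, and no keratin had as many FOXA1 peaks (at most 6). Vimentin was not alone in this among the 15. BFSP1 had 16 FOXA1 and 8 FOXA1dbd peaks in a window of 115 kb, and LMNB1 had 10 and 2 in 100 kb. INA, GFAP, LMNB2, NEFM and NEFL had 0 FOXA1 peaks. LMNA, which encodes lamins A and C of the nuclear envelope, had 13 HNF4A peaks and 1 FOXA1 peak. Of 94 keratin-associated protein genes, which encode the matrix around hair keratins, 46 had FOXA1 (48.9%, against 77.2% of all genes), 25 FOXA1dbd (26.6% against 47.2%), 34 FOXA1nhaa (36.2% against 70.8%), 24 FOXA1rraa (25.5% against 62.9%) and 28 HNF4A (29.8% against 77.4%). In the same order of lists they had 22.5, 5.63, 19, 12.7 and 7.74 peaks per Mb. The stretch of 319 kb between the KRT40 and KRT33A windows, with 34 of these genes, held 23 FOXA1, 7 FOXA1dbd, 19 FOXA1nhaa, 14 FOXA1rraa and 4 HNF4A peaks. HNF4A density was lower over keratin-associated protein genes (3.86 to 13.8 per Mb) than over keratins (19.3 to 36.9), with intervals that do not overlap, while for FOXA1 the intervals did overlap (15.4 to 31.8 and 24 to 43.1).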

How the data were processed

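ChIP-seq peak lists of 5 constructs in BJ fibroblasts were analysed, 1 list per construct, with a down-sampled FOXA1 list as an alternative. The labels give 26 samples, 6 of them of HALO-tagged H2B and not analysed here. Per the submitters' processing notes, the tools were Bowtie2 2.3.4.1, Picard, GATK 4.2.6.0, bedtools 2.27.1, MACS2 2.2.7.1 and deepTools 3.5.0, with build hg19, and their roles and order are not stated. The sources used here do not give whether libraries were pooled before peaks were called. Each deposited list gives a score per peak, and all but FOXA1 also give the authors' fold enrichment (a ratio) and the −log10 of a p-value and q-value. These are the authors' values, each of a single peak, and ranked peaks within 1 list only. The deposited lists hold no read counts, so read depth is unknown.

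Groups came from the sample titles. Genes came from GENCODE 44 lifted to GRCh37, and the largest peak ends on chromosomes 12 and 17 lay within that reference. Repeated rows were counted once (28850 FOXA1dbd rows gave 28831 peaks). Peaks were counted in windows of 20 kb either side of the gene body, with 95% Wilson intervals for shares and exact Poisson intervals for densities, which cover counting error only. Cores were searched in 200 bp about the summit, or about the midpoint of rows that do not contain their summit or give none. Score percentiles are mid-ranks within a list. With 1 list per construct no test was run. Named genes were the keratins of simple and basal epithelia, those with the most peaks of a list, those with peaks of all or none of the lists and those with a peak at the gene start. Named peaks were the highest-scoring of each list, those overlapped by all altered forms or HNF4A, and the highest outside FOXA1 peaks. Genes named besides these were chosen after their values were seen. The members, classes and lists were chosen with earlier results of these data known. Counting and overlap code was tested on simulated data. Python 3.11.15, pandas 2.3.3, numpy 2.4.6 and scipy 1.17.1 were used.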

Additional observations from a re-analysis of the deposited data

How the results depend on the processing

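Of 80 values recomputed under other settings, 52 stayed within the interval of the reported value (for gene counts, within 1.5 times) and 28 did not. Some intervals are wide, so values inside them still moved by over 1.5 times, as cores in FOXA1dbd peaks did from 14.3% to 7.14% with the central 100 bp. Set against the whole list or all genes under the same setting, 5 of the 80 no longer lay on the side of the reported value, and none of these was a gene count or a density. With 5 kb either side, genes with a peak numbered 19 (FOXA1, 34.5% against 63.4% of all genes), 6 (FOXA1dbd, 10.9% against 36.9%), 17 (FOXA1nhaa, 30.9% against 57.7%), 8 (FOXA1rraa, 14.5% against 50.9%) and 17 (HNF4A, 30.9% against 67.2%). With the top 50% of each list they numbered 22 (FOXA1, 64.8% of all genes), 8 (FOXA1dbd, 33.2%), 18 (FOXA1nhaa, 58.8%) and 9 (FOXA1rraa, 50.6%). With the 28831 highest-scoring peaks they numbered 10 (FOXA1, 46% of all genes), 7 (FOXA1nhaa, 46.8%), 7 (FOXA1rraa, 46.7%) and 25 (HNF4A, 71.8%). The down-sampled FOXA1 list gave 16 (53.3% of all genes). Densities per Mb with the top 50% were 15.6 (FOXA1, against 38.1 over all genes), 3.38 (FOXA1dbd, 6.44) and 10.8 (FOXA1nhaa, 25.1). For FOXA1rraa the density was 4.74 (17.4) and for HNF4A 13.5 (10.2). FOXA1rraa without FOXA1 rows had 6.77 (23.2). These settings hold fewer peaks or shorter windows by construction. The overlap of FOXA1 by FOXA1nhaa was 0% in the top 50% (30.5% of the whole list). That by FOXA1rraa was 14.6% without FOXA1 rows (25% of the whole list). The overlap by HNF4A was 0% in the top 50% (0.971% of the whole list) and 0% when 50% of the shorter peak had to be shared (1.09%), so that it passed from above to below the whole list. Forkhead cores in FOXA1 peaks were at 10.4% in the central 100 bp (10.1% of the whole list) and 10.4% with TGTTTAC alone (7.33%). TGTTTAC alone gave 0% for FOXA1nhaa (6.18% of its whole list) and 5.56% for FOXA1rraa (8.81% of its whole list). In the central 100 bp FOXA1rraa stood at 11.1%, equal to its whole list, and the HNF4 core in HNF4A peaks at 0% (0.609% of the whole list).

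No paired analysis was possible because the files give a single list for every construct, and for the same reason no replicate was left out. Read depth is unknown. Absence from a list is not absence of binding. Counts per gene rest on few peaks, and neighbouring windows share them.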

Other observations

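Genes that anchor keratin filaments at the cell surface held peaks unevenly. Of 19 desmosome and hemidesmosome genes, 10 had FOXA1 in their windows (52.6%, against 77.2% of all genes), 8 FOXA1dbd (42.1% against 47.2%), 8 FOXA1nhaa (42.1% against 70.8%), 7 FOXA1rraa (36.8% against 62.9%) and 11 HNF4A (57.9% against 77.4%). DST, which encodes dystonin, had 152 FOXA1, 32 FOXA1dbd, 113 FOXA1nhaa, 89 FOXA1rraa and 25 HNF4A peaks in a window of 537 kb, so most peaks of the FOXA1 constructs counted for these genes, though not most of HNF4A, were in that gene. COL17A1, the hemidesmosomal collagen, had 12 FOXA1, 1 FOXA1dbd, 5 FOXA1nhaa, 5 FOXA1rraa and 3 HNF4A peaks. DSP, the desmoplakin that links keratin to desmosomes, had 7 FOXA1, 0 FOXA1dbd, 6 FOXA1nhaa, 4 FOXA1rraa and 1 HNF4A peaks. PLEC, the linker plectin, had 2 FOXA1 and 19 HNF4A peaks, and JUP, plakoglobin, had 4 HNF4A peaks and 0 of each FOXA1 construct.

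Of 16 genes for epithelial transcription factors, 13 had FOXA1 (81.2%, against 77.2% of all genes), 6 FOXA1dbd (37.5% against 47.2%), 10 FOXA1nhaa (62.5% against 70.8%), 11 FOXA1rraa (68.8% against 62.9%) and 14 HNF4A (87.5% against 77.4%). TP63, the regulator of stratified epithelium, had 20 FOXA1, 5 FOXA1dbd, 11 FOXA1nhaa, 5 FOXA1rraa and 1 HNF4A peaks in a window of 306 kb. GRHL2 had 13 FOXA1, 0 FOXA1dbd, 6 FOXA1nhaa, 2 FOXA1rraa and 5 HNF4A peaks. KLF4, which is needed for the skin barrier, had 4 FOXA1, 0 FOXA1dbd, 1 FOXA1nhaa, 3 FOXA1rraa and 1 HNF4A peaks. OVOL1 and MSX2 had 0 peaks in all 5 lists. These genes differ in length, and the counts of single genes were not scaled to it. Per Mb of their merged windows FOXA1 had 46.4 peaks (36.7 to 57.8), against 73.8 over all genes. FOXA1nhaa had 26.4 (19.3 to 35.4) against 49.1 and FOXA1rraa 20.6 (14.3 to 28.6) against 34.1. For FOXA1dbd (11.7, 7.18 to 18.1, against 13.2) and HNF4A (25.3, 18.3 to 34, against 20.1) the interval included the value over all genes.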
